A study of Mus musculus with 15 samples.

Results

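The broad H3K4me3 regions of mouse liver were the 783 regions, of 74158 merged regions in all, in which at least 5 of 15 peak lists held an island 4 kb wide or wider. An island is the name SICER2 gives to a stretch of enriched windows, each of 200 bp, joined across gaps of up to 400 bp. The islands of the 15 lists were joined into regions wherever they met, and the members were chosen by island width in these same lists. The widths pooled over diets are therefore given as a description. PAT-ChIP-seq, chromatin immunoprecipitation and sequencing from formalin-fixed, paraffin-embedded tissue, had been done on the livers of female C57BL/6 mice (the labels' spelling, C57BL/6J in the study's methods), with 1 library per mouse and 3 mice on each of 5 diets. The diets were the standard diet (SD), caloric restriction (CR), the high fat diet (HF), and diets with yellow corn (YD) and with purple corn (RD). The feeding was started at 3 months of age and lasted 10 months according to the design text, and the age stated in the labels is 12 months. No other allele or agent was named for any group, and each library is from whole liver, in which fewer cells of a type and less mark per cell cannot be told apart.

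H3K4me3, a histone mark of active promoters with 3 methyl groups on 1 lysine, is laid down by the SET1 and MLL complexes, in part through subunits that bind unmethylated CpG sites. At most active promoters it forms a narrow peak on the nucleosomes next to the transcription start site (TSS). Broad domains of the mark are known from genes that define the identity of a cell, such as the master transcription factors of a tissue, and from genes with a high and steady transcription.

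The members were of 2 kinds, which differed in position and in sequence. A protein-coding TSS lay in 509 of the 783 regions, 81 had only the TSS of another kind of gene, and 193 had no annotated TSS. Of the 509, 56 held the TSS of a gene named Zfp, which codes for a zinc finger protein (the CCCH genes of the Zfp36 family were left out of this class), and 453 did not. A broad H3K4me3 domain at a promoter is therefore a fitting description of only part of the members, and the other 274 are called below regions without a coding TSS. The whole set held the TSSs of 619 protein-coding genes, with 402 regions at 1 such gene and 99 at 2.

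Example sequences from both kinds are shown because their CpG sites differ widely. Each run has 300 bases on the plus strand of GRCm38.p6, the build that carries mm10 coordinates, with every CpG in capitals. The first 6 are RefSeq promoters from 250 bases before to 50 bases after a gene start, and the last is the middle of the widest member. Zbtb7a (chr10:81136021-81136320, 31 CpG) and Abhd15 (chr11:77514867-77515166, 29) have CpG-rich starts, as has Dusp6 (chr10:99262981-99263280, 19). Hnf4a (chr2:163546905-163547204, 4 CpG) and Apob (chr12:7977427-7977726, 9) are liver genes with few CpG sites at the start. Zfp982 (chr4:147492167-147492466, 5 CpG) is an example of the zinc finger genes with fewer CpG sites than most. The median of 37 starts in Zfp regions was 10 CpG, against 14 over all coding starts. The centre of the widest member (chr17:85344351-85344650, 2 CpG) lies in the gene body of Camkmt.
Zbtb7a: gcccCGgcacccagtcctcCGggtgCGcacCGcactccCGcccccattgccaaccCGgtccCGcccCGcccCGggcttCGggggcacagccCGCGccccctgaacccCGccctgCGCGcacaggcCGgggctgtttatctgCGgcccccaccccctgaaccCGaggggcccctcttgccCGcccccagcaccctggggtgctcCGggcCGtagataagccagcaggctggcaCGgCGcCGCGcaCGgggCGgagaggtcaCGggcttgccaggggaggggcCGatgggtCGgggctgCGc
Abhd15: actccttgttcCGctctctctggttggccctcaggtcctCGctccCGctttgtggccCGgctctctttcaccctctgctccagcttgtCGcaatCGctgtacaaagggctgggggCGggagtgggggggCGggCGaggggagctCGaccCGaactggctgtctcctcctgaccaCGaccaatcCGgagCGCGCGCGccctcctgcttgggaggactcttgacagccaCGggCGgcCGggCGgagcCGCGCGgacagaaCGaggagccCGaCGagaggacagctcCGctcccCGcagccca
Hnf4a: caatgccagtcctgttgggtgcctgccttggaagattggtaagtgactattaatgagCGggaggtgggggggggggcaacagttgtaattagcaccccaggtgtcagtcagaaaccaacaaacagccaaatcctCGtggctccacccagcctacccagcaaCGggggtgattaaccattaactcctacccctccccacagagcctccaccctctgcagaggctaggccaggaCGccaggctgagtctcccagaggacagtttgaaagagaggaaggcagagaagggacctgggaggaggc
Dusp6: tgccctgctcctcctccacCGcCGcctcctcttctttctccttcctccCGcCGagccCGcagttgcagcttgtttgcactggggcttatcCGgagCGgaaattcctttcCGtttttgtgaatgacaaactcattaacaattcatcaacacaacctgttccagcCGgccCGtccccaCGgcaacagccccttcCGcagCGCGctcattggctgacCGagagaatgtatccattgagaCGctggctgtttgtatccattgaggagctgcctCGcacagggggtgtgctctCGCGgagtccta
Apob: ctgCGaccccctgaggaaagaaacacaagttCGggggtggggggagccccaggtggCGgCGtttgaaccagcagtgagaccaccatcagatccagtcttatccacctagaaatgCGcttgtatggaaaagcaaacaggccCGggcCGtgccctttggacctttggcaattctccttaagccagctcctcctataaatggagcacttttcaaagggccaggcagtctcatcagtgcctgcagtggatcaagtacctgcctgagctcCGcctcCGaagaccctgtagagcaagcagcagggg
Zfp982: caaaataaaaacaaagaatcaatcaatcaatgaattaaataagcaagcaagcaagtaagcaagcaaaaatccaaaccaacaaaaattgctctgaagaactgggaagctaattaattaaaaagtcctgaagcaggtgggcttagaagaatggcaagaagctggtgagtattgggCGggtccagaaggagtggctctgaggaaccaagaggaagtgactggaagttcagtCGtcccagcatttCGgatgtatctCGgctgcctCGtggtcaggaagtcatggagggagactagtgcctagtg
centre of the widest broad region: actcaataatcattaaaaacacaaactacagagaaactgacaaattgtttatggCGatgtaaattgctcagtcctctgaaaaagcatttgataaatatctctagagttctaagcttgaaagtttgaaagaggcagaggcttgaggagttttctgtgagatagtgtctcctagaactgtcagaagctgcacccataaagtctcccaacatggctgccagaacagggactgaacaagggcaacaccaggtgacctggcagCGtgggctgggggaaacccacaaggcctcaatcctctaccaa

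Whole regions also differed in CpG content between the kinds. The median ratio of observed to expected CpG was 0.454 in the 453 regions with a coding TSS and no Zfp gene, 0.182 in the 56 Zfp regions and 0.158 in the 274 regions without a coding TSS. GC content had medians of 48.3%, 40.7% and 40.4%, and soft-masked repeats covered 16.1%, 35.7% and 37.7% of the bases. For comparison, 1290 regions of the first kind had an island in all 15 lists without being broad, and their median CpG ratio was 0.495 with a GC content of 48.5%. In 32 Zfp regions that were likewise not broad the ratio was 0.439, with 19.4% in repeats. Their median merged width was 4.4 kb, against 26.1 kb in the broad Zfp regions. In 97 such regions without a coding TSS the ratio was 0.188, close to that of the broad ones. Composition was not used by the rule, and the values are given as a description of the regions, many of which share a gene cluster or a repeat.

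The Zfp regions were also the longest by their median, though the longest single regions were of the other kinds. The covered length, the number of bases of a region that lie in islands of 1 library, had a median over the 15 libraries of 4 kb in the typical region with a coding TSS and no Zfp gene, 16.3 kb in the Zfp regions and 6.8 kb in those without a coding TSS. It passed 10 kb in 27 of 453, 40 of 56 and 87 of 274. The score per covered kb was highest in the first and shortest kind, with medians of 24.98, 18.16 and 16.39. The SICER2 score is a sum over windows of minus the natural log of a Poisson probability. Both longer kinds of region thus had less score per window than the shortest.

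**Figure D1:**
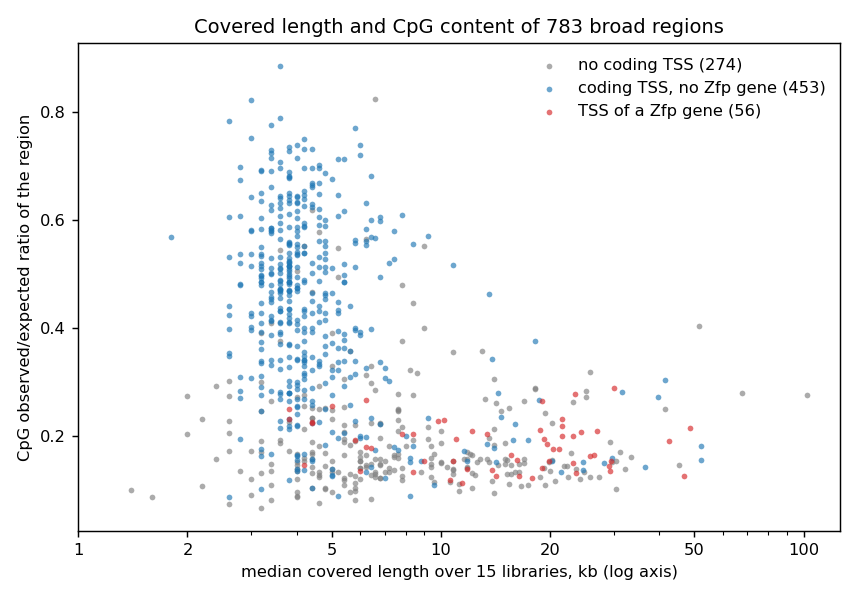
Median covered length over the 15 libraries (x, kb, log axis) against the CpG observed/expected ratio (y) of each of the 783 broad regions, with points coloured by the kind of TSS in the region. The 453 regions with a coding TSS and no Zfp gene lie mostly near 4 kb and spread upwards in CpG ratio, whereas the 56 Zfp regions lie low and to the right.

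The 12 longest members with a coding TSS were, in order, AU041133, Hjurp with Mroh2a and Ugt1a1, Zfp982, Zfp938, Zfp942 with Zfp943, Tcf4, Tspan5, AW146154, Smyd3, Zfp146, Gm16503 and Zfp873. AU041133 (chr10:82102201-82169600) had a median covered length of 52.2 kb, with a range of 23.2 to 63.6 kb over the libraries. The region at Hjurp, a chaperone of centromeric histone, and Ugt1a1, which conjugates bilirubin (chr1:88211401-88270400), had a median of 52.0 kb and a range of 30.2 to 59.0 kb. Zfp982 (chr4:147441201-147500800) was long in every mouse, at 49.8, 45.0 and 45.6 kb in the SD mice, 51.4, 43.4 and 52.6 kb in the CR mice, 52.4, 53.4 and 42.2 kb in the HF mice, 48.6, 44.0 and 43.4 kb in the YD mice and 51.2, 59.0 and 41.4 kb in the RD mice. All diets overlapped there. Tspan5, a tetraspanin gene (chr3:138767601-138879200), was in contrast far more variable, from 13.8 kb in SD_2 to 100.8 kb in RD_2.

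Of 393 annotated protein-coding Zfp genes, 58 (14.8%) had a TSS in a broad region, against 619 of all 21728 protein-coding genes (2.85%). Among the regions without a coding TSS, 101 of 274 (36.9%) lay within 100 kb of the TSS of such a gene, compared with 448 of 11731 (3.82%) of the tested regions that were neither broad nor at a coding TSS. Regions of a cluster are neighbours and are not independent, so these shares carry no test.

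The widest region without a TSS lay in the body of Camkmt, a calmodulin methyltransferase gene (chr17:85265801-85423200), and merged to 157.4 kb. It was covered over 123.2, 108.4 and 90.6 kb in the SD mice, 119.0, 77.8 and 137.2 kb in the CR mice, 98.2, 120.0 and 52.0 kb in the HF mice, 137.6, 89.2 and 92.0 kb in the YD mice and 102.0, 152.6 and 99.4 kb in the RD mice. HF_3 was the lowest library there and RD_2 the highest. The next 3 were 2 regions in Wwox, an oxidoreductase gene at a fragile site (chr8:114784201-114902600, median 67.8 kb, and chr8:115179601-115269600, 41.6 kb), and an intergenic region (chr5:104700201-104770000, 33.4 kb). Wwox held 6 members in all. Of the 274 regions without a coding TSS, 131 overlapped the body of a protein-coding gene, and 192 lay more than 10 kb from the nearest coding TSS, with a median distance of 25.2 kb.

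Part of the members had copies elsewhere in the genome. At least 10% of the sequence aligned elsewhere over 1 kb or more at an identity of 90% or more in 89 of the 274 regions without a coding TSS (32.5%), 8 of 56 Zfp regions (14.3%) and 22 of the 453 others (4.86%). The regions with an island in all lists that were not broad were counted in the same way. In the same order, the numbers were 28 of 97 (28.9%), 3 of 32 (9.38%) and 9 of 1290 (0.698%). Copies were thus also common in regions without a coding TSS that were not broad. Reads from such copies cannot be told apart when they are identical, and the score of regions with copies is uncertain. The highest scores per covered kb were at Gm21738 (3283), Sfi1 (894.9) and the pair Gm10717 and Gm10718 (882.5), where soft-masked repeats made up 71.5%, 45.4% and 95.7% of the bases. The alignment found no copies elsewhere for any of these regions, so they are not among those counted. It can miss satellite repeats, and the shares with copies are therefore lower bounds.

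The regions of the first kind covered the start of the gene and its first kilobases. In 355 of them with 1 coding gene, the median covered length downstream of the TSS was 3.35 kb and that upstream 0.800 kb (medians of 15 libraries, with ranges of 1.57 to 4.33 kb and 0 to 1.40 kb). The 935 regions at 1 coding gene with an island in every list that were not broad had 1.73 kb downstream and 0.509 kb upstream. More bases were covered downstream than upstream in 85.9% of the broad regions in the median library and in 91.6% of the others, so both sets leaned into the gene.

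**Figure D2:**
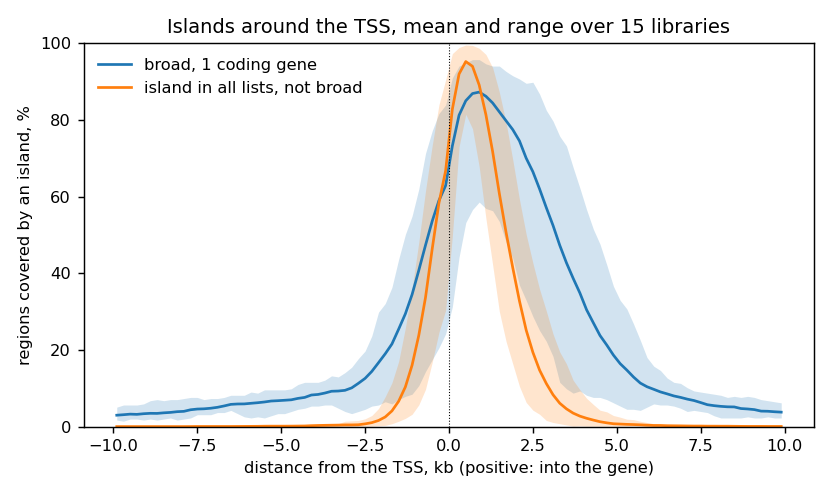
Share of regions (y, %) with an island at each distance from the TSS (x, kb, positive into the gene), as mean (line) and range (shade) over 15 libraries, for 355 broad regions with 1 coding gene and 935 regions with an island in all lists that were not broad. The broad regions reach further into the gene, with medians of 3.35 and 1.73 kb covered downstream.

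RefSeq promoters were found for 473 of the 619 coding genes. A CpG ratio over 0.6 was measured in 71.7% of 512 gene starts in broad regions without a Zfp gene, in 51.4% of 37 starts in Zfp regions, in 84.2% of 1567 starts in the other regions with an island in all lists, and in 49.3% of all 20061 coding starts. The TATA box (TATAAA, on either strand) was present in 10.9% of the starts in broad regions without a Zfp gene, 6.25% of those in the other regions with an island in all lists and 12.1% of all starts. For the GC box (GGGCGG) the shares were 62.9%, 63.9% and 48.0%, for CCAAT 42.2%, 39.1% and 37.9%, for the E-box CACGTG 9.18%, 9.13% and 8.06%, and for the cAMP element TGACGTCA 1.37%, 4.66% and 2.32%. Matches of different motifs can share bases, and a match is a description of the sequence alone.

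The genes of the first kind included many that define the hepatocyte. Of 40 liver transcription factor genes, 18 had a TSS in a broad region, as had 21 of 47 immediate early and stress response genes, 19 of 58 genes of carbohydrate, lipid and amino acid metabolism and 11 of 46 genes of secreted hepatocyte proteins. Set against these shares of 45.0%, 44.7%, 32.8% and 23.9%, 5.60% of the 11059 protein-coding genes with a TSS in a tested region (an island in at least 3 lists) lay in a broad region. The gene lists were written with earlier results of these data known, and the shares are a description.

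Apart from the sinusoidal endothelial list, few genes listed for other cells of the liver had a tested region at all. The counts of these lists among the members are given without a reading. None of 17 macrophage genes, 14 stellate cell and fibroblast genes or 13 lymphocyte genes had a TSS in a broad region, and 3, 4 and 2 of them had one in a tested region. Of 17 sinusoidal endothelial genes only Gata4 was found (12 had a tested region), and of 10 cholangiocyte genes 2 were found (3 had a tested region), all of which are also in the list of liver transcription factors. One of 36 cytosolic ribosomal protein genes (Rpl18, which shares its region with Sphk2), 1 of 19 circadian genes (Bhlhe40) and 1 of 64 developmental transcription factor genes (Tbx3) were present. All 36 ribosomal and all 19 circadian genes had a tested region, and their shares of 2.78% and 5.26% are not above the 5.60% of all such genes.

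Among the liver transcription factors, Nfib, a nuclear factor I gene, had the longest coverage at 9.8, 9.2 and 7.6 kb in the SD mice, 8.4, 12.6 and 8.6 kb in the CR mice, 11.6, 6.2 and 10.2 kb in the HF mice, 7.8, 4.0 and 3.4 kb in the YD mice and 5.6, 5.8 and 2.6 kb in the RD mice. Only YD_1 reached the lowest SD value among the mice on the corn diets. Prox1, a regulator of hepatocyte and lymphatic fate (chr1:190165601-190175800), was broad in 13 lists and had 8.0, 7.6 and 6.6 kb in SD, 5.8, 8.6 and 9.4 kb for CR, 8.0, 9.2 and 7.2 kb in HF, 7.8, 2.4 and 5.6 kb for YD and 4.8, 5.2 and 4.8 kb in RD. Klf15, a factor of fasting metabolism, and Nfia followed with medians of 6.8 and 6.2 kb.

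Hnf4a, the nuclear receptor that controls most hepatocyte genes (chr2:163546401-163556200), was covered over 4.6, 3.4 and 4.2 kb in the SD mice, 2.8, 5.2 and 4.0 kb in the CR mice, 6.0, 4.6 and 9.8 kb in the HF mice, 3.6, 2.2 and 2.4 kb in the YD mice and 3.0, 4.6 and 2.8 kb in the RD mice. In every library most of that length lay downstream of the TSS, whose CpG-poor start is printed above. Other factors were Ppara (median 5.8 kb), Onecut2 (5.2), Gata6 (4.8), Cebpa (4.6), Rxra (4.2), Nr5a2 and Nr1h4 (3.8 each), Gata4 (3.6), Foxa1 and Srebf1 (2.8 each) and Onecut1 (2.6). Foxa1, a pioneer factor, was the most uneven, with 2.8, 7.4 and 3.0 kb in the SD mice but no island in CR_1, YD_1, YD_3, RD_2 and RD_3.

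Of the immediate early and stress response genes, Zfp36l1, which codes for an mRNA decay factor, was covered over 6.8, 7.2 and 7.4 kb in SD, 6.8, 7.6 and 9.2 kb for CR, 8.8, 8.8 and 8.2 kb in HF, 7.8, 6.0 and 4.8 kb for YD and 6.0, 5.4 and 7.4 kb in RD. Id2, an inhibitor of helix-loop-helix factors (chr12:25092401-25102000), had 7.8, 7.4 and 7.4 kb in SD, 5.8, 8.6 and 6.4 kb for CR, 7.8, 7.2 and 9.6 kb in HF, 4.8, 4.0 and 4.6 kb for YD and 4.2, 4.4 and 2.8 kb in RD. All 6 mice on the corn diets were below all 9 others at Id2. For Dusp6, a phosphatase of ERK, the median was 6.2 kb, for Ier2, an immediate early gene, 5.8 kb, and for Bcl6, a transcriptional repressor, also 5.8 kb.

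In the list of metabolism, long genes were Irs2, an adaptor of the insulin receptor (median 6.8 kb), Tkfc, which phosphorylates glyceraldehyde (5.2 kb), and Mat1a, the S-adenosylmethionine synthetase of hepatocytes (5.0 kb). Those of the secreted proteins were Fgg, a fibrinogen chain (4.8 kb), Apob, the core protein of VLDL (4.4 kb), Rbp4, the carrier of retinol (4.4 kb), and Igf1 (4.4 kb). Apob was among the steadiest, with means of 4.80 ± 0.20 kb (SD mice), 4.40 ± 0.35 kb (CR), 4.67 ± 0.46 kb (HF), 3.53 ± 1.14 kb (YD) and 3.8 ± 0.2 kb (RD) (± standard deviation, n = 3 mice each).

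**Figure D3:**
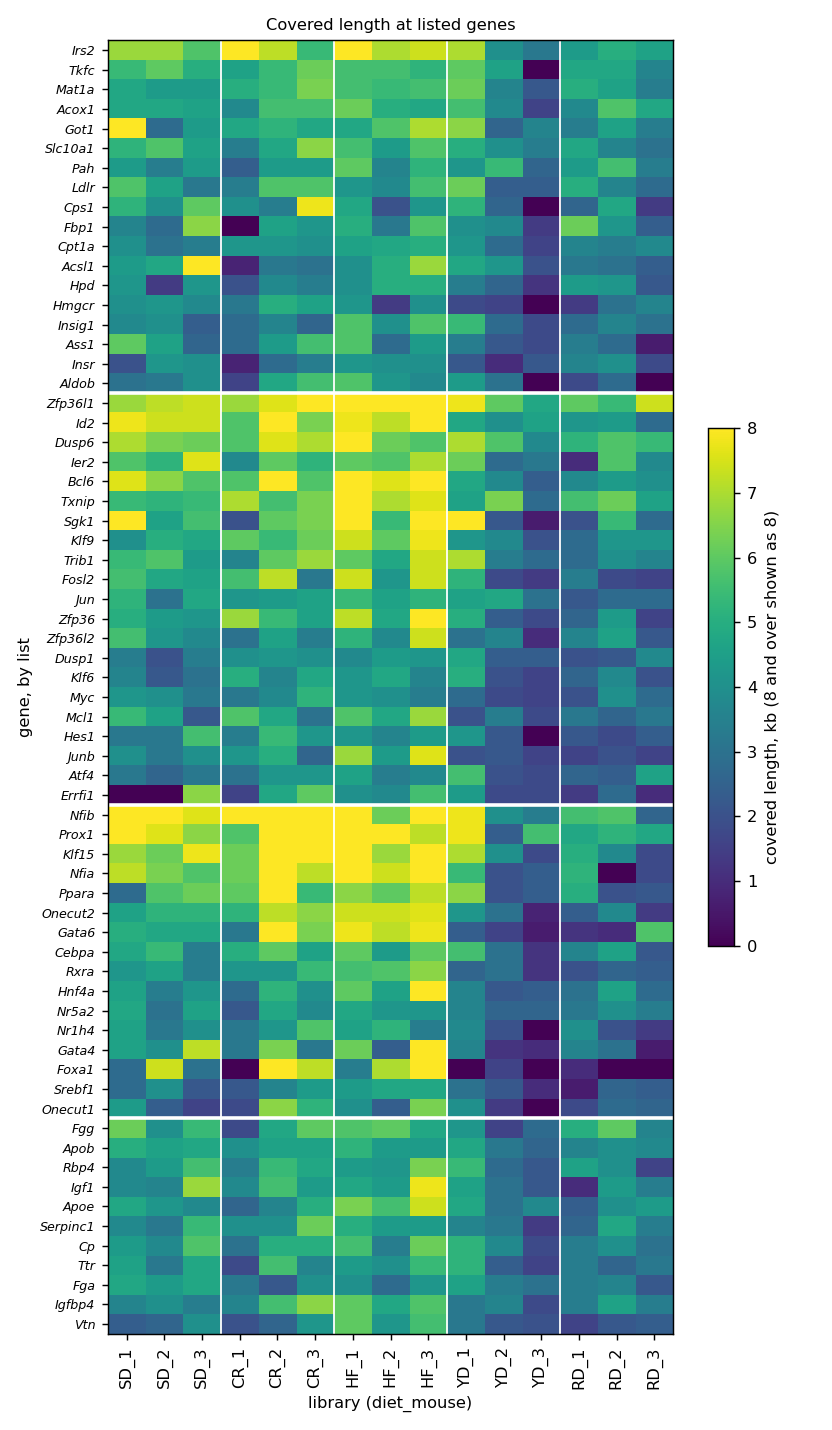
Covered length (colour, kb, with 8 kb and over shown alike) at genes of 4 lists that lie in broad regions (rows, sorted by list and median) in each of the 15 libraries (columns, diet and mouse). YD_2, YD_3 and most RD libraries are darker than the SD libraries over the rows, and HF libraries are lighter.

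The number of members with an island of 4 kb or more was 572, 324 and 450 in the SD lists, 519.3 ± 92.2 (mean and standard deviation) in the CR lists, 697, 586 and 460 for HF, 552, 238 and 131 for YD and 286, 550 and 264 for RD. The spread within a diet was as large as most differences between diets. An island of any width was present in 695 to 783 members per library. The reads recovered behind each list ranged from 5589269 to 15449854, and YD_1 and RD_2 had the most. These libraries also stood apart in their islands: 21.9% and 20.3% of them were 4 kb or wider, against 1.68 to 10.5% in the other 13. Of the wide islands of RD_2, 11.3% lay in broad regions, against 35.6 to 94.5% in the other 14 libraries. The counts of members called below are therefore also given without YD_1 and RD_2 (for CR and HF against SD they were 0 with and without them on both measures), and the part of depth in the results was not tested.

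The share of all islands that were 4 kb or wider did not pass a test for any diet. The mean was 5.67 ± 2.46% in SD, 5.74 ± 0.940% for CR, 8.83 ± 2.92% in HF, 9.05 ± 11.2% for YD and 8.81 ± 9.96% in RD (± standard deviation, n = 3), and each diet against the other 4 gave an adjusted p of 0.824 (two-sided exact permutation test, Benjamini-Hochberg over 5 diets). The differences ranged from -2.43 to 1.79 percentage points. Counting islands within 1 kb of a TSS alone gave 10.6 ± 4.38% in HF against 6.10% in the other diets (exact permutation p = 0.0901, adjusted p = 0.451).

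The covered length by diet is given for each kind of region. The median covered length of the 453 regions with a coding TSS and no Zfp gene was 4.6, 4.0 and 4.2 kb in the SD libraries, 4.0, 4.8 and 5.0 kb in CR, 5.8, 4.6 and 5.4 kb in HF, 4.4, 2.8 and 1.8 kb in YD and 3.2, 4.0 and 3.0 kb in RD. Only YD_1 and RD_2 of the corn diets reached the lowest SD library. In the regions without a coding TSS it was 8.9, 5.6 and 6.3 kb in SD, 7.5, 5.4 and 9.9 kb for CR, 9.0, 9.0 and 3.4 kb in HF, 8.4, 5.8 and 4.6 kb for YD and 6.0, 12.7 and 6.2 kb in RD, and every diet overlapped SD. The value of HF_3 was the lowest of all.

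On the scale of the relative score, which is the summed score of a region divided by the library's median over the regions with an island in all lists, the regions without a coding TSS had medians of 1.88, 1.27 and 1.43 in SD, 2.03, 0.836 and 1.49 for CR, 0.846, 1.63 and 0.334 in HF, 2.04, 2.21 and 2.62 for YD and 2.20, 3.63 and 2.51 in RD. All 6 libraries of the corn diets were above all SD libraries. The same held for the 56 Zfp regions, at 3.08 to 4.44 in SD, 5.69 to 6.73 in YD and 6.30 to 8.96 in RD. In the regions with a coding TSS and no Zfp gene the ranges of the relative score overlapped, at 1.41 to 1.48 in SD, 1.20 to 1.46 in YD and 1.32 to 1.5 in RD. These are medians over members and carry no p. Of the 1984 regions behind the divisor, 1419 were not broad, and 1290 of those had a coding TSS and no Zfp gene. The level of the members with a coding TSS and no Zfp gene is therefore set largely by the scaling. A lower signal at coding TSSs and a higher one in the other kinds cannot be told apart on this scale. All SD and YD libraries have the ChIP form of name and so have 2 of the RD libraries, and the third, RD_1, which has the PATChIP form, had 2.20 against 0.334 to 2.03 in the other 4 libraries of that form.

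**Figure D4:**
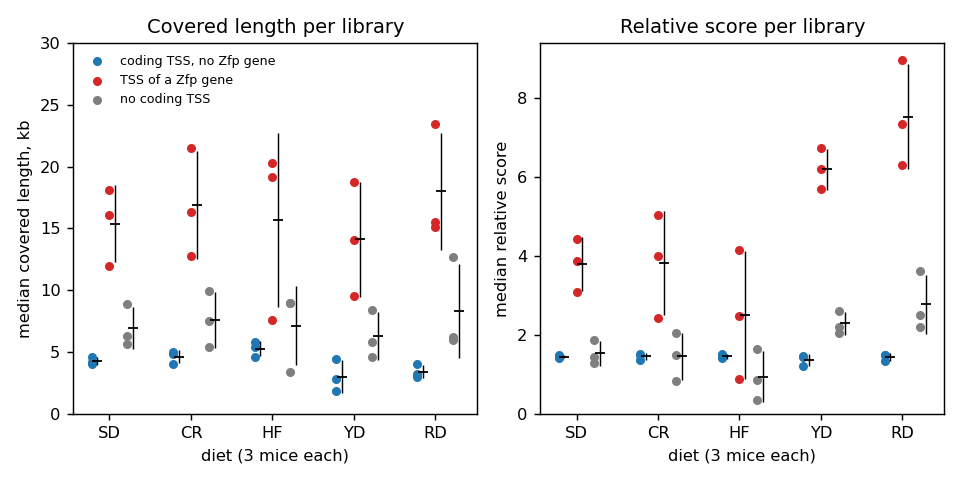
Median over the members of covered length (left, kb) and of relative score (right) in each library, by diet and by kind of region, where points are mice and the black bars are the mean and standard deviation of 3 mice. The relative score of Zfp regions and of regions without a coding TSS is higher in the YD and RD libraries than in those of SD. That of the other regions stays near 1.4, a level set largely by the divisor, which rests mostly on regions at a coding TSS.

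Single regions were tested with limma over all 22125 regions with an island in at least 3 lists, on log2(covered bp + 200) and on log2(relative score + 0.1), so that differences at low values are understated. By the rule, a region wide in only the 3 mice of 1 diet could not be a member, but one without islands in that diet could. The direction of calls among members is thus partly set by the rule in each comparison. For YD against SD, 6 members were called shorter and none longer (adjusted p under 0.05). Of all tested regions, 214 (0.967%) were called shorter and 0 longer. The members' share of 6 in 783 is near that background. Their median log2 difference was -0.63 in the regions with a coding TSS and no Zfp gene, -0.05 in the Zfp regions and -0.16 in those without a coding TSS, and that of all tested regions was -0.86. With the libraries centred, the last 3 of these 4 medians became 0.45, 0.34 and -0.37 and the first -0.13, so the direction of the long regions depended on the scaling.

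The strongest call was the region of Abhd15, an abhydrolase of fat metabolism, and Trp53i13, a gene induced by p53 (chr11:77511801-77518200). It was covered over 3.2, 3.4 and 2.6 kb in SD, 4.6, 5.2 and 4.8 kb for CR, 5.2, 3.8 and 5.8 kb in HF, 2.4, 2.0 and 1.4 kb in RD, and had no island in any YD mouse. The fitted log2 difference was -4.02 (SE 0.42, limma adjusted p = 0.000808), a size that depends on the pseudocount because YD is at 0. Zbtb7a, which codes for a transcriptional repressor (chr10:81133601-81141800), had 5.6, 5.0 and 2.8 kb in SD, 4.8, 7.0 and 4.6 kb in CR, 7.8, 6.4 and 7.4 kb in HF, 0.8, 0 and 0 kb for YD and 2.0, 4.0 and 2.4 kb in RD (YD minus SD -3.71, SE 0.57, limma adjusted p = 0.00605).

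The third region, at Zcchc3, a nucleic acid sensor, and 6820408C15Rik (chr2:152411401-152418000), had no island in any of the 6 mice on corn diets, but 4.0, 1.6 and 1.8 kb in SD, 3.0, 4.6 and 4.4 kb in CR and 4.0, 5.8 and 3.2 kb in HF (YD minus SD, limma adjusted p = 0.00816). For RD against SD its limma adjusted p was 0.0534, just short of the threshold. Ptprg, a receptor tyrosine phosphatase gene (chr14:11551201-11557400), had 2.4, 4.2 and 3.8 kb in SD, 0, 1.2 and 0 kb in YD and 2.8, 2.6 and 2.8 kb in RD (YD minus SD -3.23, SE 0.62, limma adjusted p = 0.0215).

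Hlx, a homeobox factor of liver development (chr1:184726601-184735200), had 4.6, 2.8 and 5.4 kb in SD and 1.6, 0 and 0 kb in YD (limma adjusted p = 0.0406). Nfe2l1, the factor that raises proteasome genes (chr11:96822801-96831800), had 6.2, 7.8 and 6.2 kb in SD and 1.6, 1.2 and 0 kb in YD (limma adjusted p = 0.0439). The 3 YD libraries lay below all SD libraries in each of the 6 regions. By that rule alone, 80 of the 453 regions with a coding TSS and no Zfp gene, none of the Zfp regions and 8 of 274 without a coding TSS were shorter in YD, against 8.35% of all tested regions and 16.5% of the tested regions at a coding TSS that were not broad. The smallest p among longer members was at the region in Cmss1 and Filip1l (chr16:57431401-57458400, limma adjusted p = 0.368), before chr13:12869601-12876400 and Errfi1 (0.426 and 0.446 by limma).

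**Figure D5:**
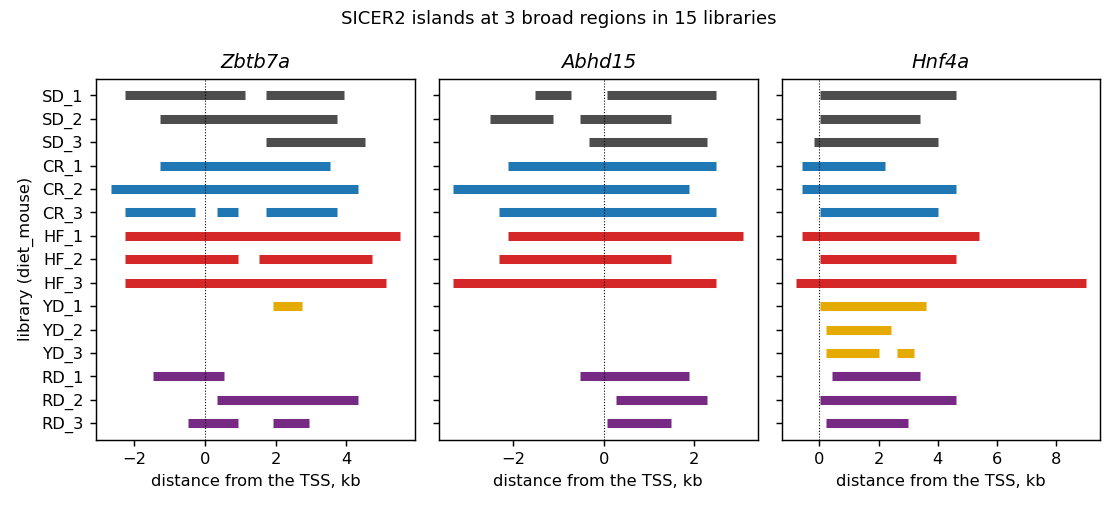
Islands (bars) in each of the 15 libraries (rows, coloured by diet) around the TSS of Zbtb7a, Abhd15 and Hnf4a (x, kb from the TSS, positive into the gene). No YD library has an island at Abhd15 and YD_1 is the only YD library with one at Zbtb7a, whereas all 15 libraries have one at Hnf4a.

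All 6 calls for YD against SD ended when length was fitted on a linear scale in kb, where no tested region was called for YD against SD. Over all 24 alternatives, the linear scale included, the call was kept in 23 at Abhd15 with Trp53i13, 23 at Zbtb7a, 21 at Zcchc3 with 6820408C15Rik, 17 at Ptprg, 10 at Nfe2l1 and 9 at Hlx, so that the last 2 calls were lost in most alternatives. Without YD_1 and RD_2, 41 members were called shorter in YD, out of 742 of all tested regions. Without YD_1 alone the numbers were 30 and 432. Without SD_1, SD_2, SD_3 or YD_3 the number called shorter was 2, 3, 3 and 3, out of 40, 65, 131 and 146. Without CR_2, CR_3 or any HF mouse it was 4, out of 98 to 148. Without SD_3, 1 member was also called longer in YD, the only such call of all tested regions.

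None of the 18 liver transcription factors, 21 immediate early, 19 metabolic and 11 secreted protein genes was called in any comparison of covered length. Their median log2 differences for YD against SD were -0.87, -0.65, -0.51 and -0.46, with 18 of 18, 19 of 21, 19 of 19 and 11 of 11 below 0, beside -0.63 over the members with a coding TSS and no Zfp gene and -0.86 over all tested regions.

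For RD against SD, limma called no member and no tested region on either measure, with 1956 of 22125 regions (38 of them members) at an unadjusted p under 0.05 for covered length and 2488 (139 members) for the relative score. The smallest p among shorter members was at Zcchc3 with 6820408C15Rik, named above, then at Slc25a39, a mitochondrial carrier of glutathione, with 3.8, 4.2 and 4.2 kb in SD and 0.6, 1.2 and 0 kb in RD (limma adjusted p = 0.123), and Znfx1, a helicase of antiviral defence, with 4.2, 4.0 and 4.4 kb in SD and 2.2, 1.2 and 2.0 kb in RD (limma adjusted p = 0.341). Among the longer ones they were an intronic region of Cmss1 and Filip1l (chr16:57431401-57458400), Fat1 and a region in Zfp74 (chr7:29930601-29938600), with limma adjusted p of 0.541, 0.543 and 0.559. Without YD_1 and RD_2, 4 members were called shorter, out of 95 of all tested regions, and 1 had a lower relative score, out of 37.

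In covered length, the libraries did not overlap between RD and SD for 82 shorter regions with a coding TSS and no Zfp gene (18.1%). The shares were 4.49% of all tested regions and 8.91% of the tested regions at a coding TSS that were not broad. The relative score was without overlap and higher in RD at 47 of 56 Zfp regions (83.9%) and 136 of 274 regions without a coding TSS (49.6%), against 4.66% of all tested regions and 10.2% of the other members. For YD against SD the corresponding shares were 46.4%, 31.0%, 1.84% and 5.30%. These regions share clusters and libraries, and none of them was called by limma. A tested region that lacks an island in a library of both diets cannot be free of overlap. An island was present in all lists at 565 of 783 members but at 1984 of the 22125 tested regions. The shares of all tested regions are therefore low for this reason also, here and in the other comparisons without overlap.

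RD against YD compares the purple with the yellow corn. In covered length 3 members were called longer in RD, Abhd15 with Trp53i13 (log2 difference 3.39, SE 0.42, limma adjusted p = 0.00661), Zbtb7a (3.08, SE 0.57, limma adjusted p = 0.0219) and Ptprg (2.94, SE 0.62, limma adjusted p = 0.0490). The background was 103 of 22125 regions called longer (0.466%) and 1 called shorter (0.00452%). Without overlap 32 members were longer in RD (background 4.01%) and 3 shorter (0.122%). These are the genes named above for YD against SD, and both comparisons share the YD libraries. The call of Ptprg was kept in 2 of 24 alternatives, that of Zbtb7a in 18 and that of Abhd15 with Trp53i13 in 22. Leaving out 1 mouse moved the number of members called for RD against YD between 1 (without YD_3 or RD_2) and 13 (without YD_1). It was 5 without YD_2. Over all tested regions, 84, 49, 251 and 235 were called without YD_3, RD_2, YD_1 and YD_2. Without YD_1 and RD_2 together 8 members were called longer and 1 shorter, out of 184 and 17 of all tested regions. With all libraries no member was called shorter in RD than in YD, where the smallest p was at Slc25a39 (limma adjusted p = 0.342), followed by Jun, a subunit of AP-1 (0.558 by limma) and Zeb2, a repressor of epithelial genes (0.568 by limma). Jun had 4.6, 4.8 and 3.0 kb in YD and 2.2, 2.8 and 2.8 kb in RD.

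HF against SD gave no member called, in a background of 107 tested regions called longer (0.484%) and 2 called shorter (0.00904%). An unadjusted p under 0.05 in limma was found for 12 of 783 members and 1703 of 22125 tested regions. The median log2 difference was 0.28 in the regions with a coding TSS and no Zfp gene, of which 388 of 453 were above 0, -0.02 in the Zfp regions and -0.13 in those without a coding TSS. It was 0.38 over all tested regions and 0.72 over the tested regions at a coding TSS that were not broad, of which 8380 of 9314 were above 0, so the members' share and median were not above those of other regions. With the libraries centred these became -0.004, -0.31 and -0.41. Without overlap 77 of the 453 (17.0%) were longer in HF, against 9.65% of all tested regions and 19% of the tested regions at a coding TSS that were not broad, and 4 members were shorter, against 0.321%. Fat1, a large cadherin, had the smallest p among longer members, with 1.4, 7.6 and 7.8 kb in SD and 18.8, 24.0 and 13.6 kb in HF (limma adjusted p = 0.349), before Errfi1, an inhibitor of the EGF receptor (0.478 by limma), and the region in Zfp74 (0.515 by limma). Among shorter members they were regions in Wwox (chr8:115304601-115358800) and Mapk4 and one at chr13:61652201-61661800, with limma adjusted p of 0.603, 0.641 and 0.712.

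For CR against SD no member and no tested region was called, and 15 members and 975 tested regions had an unadjusted p under 0.05 in limma. The median log2 difference was 0.08, 0.08 and 0.11 in the 3 kinds of region and 0.20 over all tested regions. Without overlap 41 members were longer in CR, against 3.46% of all tested regions, and 17 were shorter, against 0.868%. Fat1 again had the smallest p among longer members, with 30.6, 12.4 and 27.0 kb in CR (limma adjusted p = 0.942), followed by Errfi1 and the region of Ctdnep1 and Elp5. The low SD values at Fat1 enter both comparisons. Among the shorter were a region at chr17:17328401-17346600, one in Slc39a11 (chr11:113312001-113324600) and Acsl1, which activates long-chain fatty acids, with 4.4, 4.8 and 8.8 kb in SD and 0.8, 3.2 and 3.0 kb in CR (limma adjusted p = 0.942 for all 3).

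The relative score called 3 members for YD against SD and 1 for RD against YD. For YD against SD these were Abhd15 with Trp53i13 (log2 difference -3.08, SE 0.41, limma adjusted p = 0.00555), Zbtb7a (-2.92, SE 0.59, limma adjusted p = 0.0336) and Mat2b, the regulatory subunit of S-adenosylmethionine synthetase (-2.82, SE 0.59, limma adjusted p = 0.0400), all lower in YD, in a background of 0.456%. Mat2b (chr11:40690201-40696000) had 4.0, 2.6 and 3.2 kb in SD and 4.0, 0 and 0 kb in YD, so that YD_1 was within the range of SD. For RD against YD only Abhd15 with Trp53i13 was called higher (2.94, SE 0.41, limma adjusted p = 0.00717), in a background of 0.841% higher and 0.00452% lower. Without overlap 75 members were higher in RD than in YD (background 3.95%) and 22 lower (0.886%). None of these calls passed with a pseudocount of 0.5. Over 20 alternatives the YD against SD call was kept in 19 at Abhd15 with Trp53i13, 9 at Zbtb7a and 8 at Mat2b. Leaving out 1 mouse gave 1 to 9 members for YD against SD, with 9 without YD_1, 1 without each of SD_1, SD_2, CR_2, HF_1, HF_2, HF_3 and YD_3 and 2 without SD_3 or CR_3. For RD against YD it also gave 1 to 9, with 9 without YD_1, 3 without YD_2 or RD_1 and 2 without RD_2 or RD_3. Over all tested regions, leaving out 1 mouse gave 19 to 303 for YD against SD and 102 to 858 for RD against YD. Without YD_1 and RD_2 together the numbers of members were 10 and 9, out of 433 and 400 of all tested regions. On this measure limma called no member for HF, CR or RD against SD. Of the 783 members, 95, 23 and 139 had an unadjusted p under 0.05, against 1040, 696 and 2488 of the 22125 tested regions. The smallest p for a lower score in HF was at the Wwox region chr8:115304601-115358800 (log2 difference -2.35, SE 0.45, limma adjusted p = 0.172), and the median difference was -0.83 in the Zfp regions and -0.85 in those without a coding TSS, where HF_3 was the lowest library. For a higher score in RD it was at the region in Cmss1 and Filip1l (2.43, SE 0.55, limma adjusted p = 0.122), before Fat1 and the region of Zfp112 and Zfp180 (0.167 and 0.226 by limma).

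Across all diets, limma's test of any diet difference called 8 members in covered length, against 2.72% of all tested regions, and 41 in the relative score, against 1.35%. The 8 were Abhd15 with Trp53i13, Zcchc3 with 6820408C15Rik, Zbtb7a, Ptprg, Znfx1, Hlx, Bcl9l, a coactivator of Wnt signalling, and Slc25a39. The 41 were 22 regions without a coding TSS, 5 Zfp regions and 14 others, among them the Camkmt region (limma adjusted p = 0.0428), Sfi1, Gm21738 and the pair Gm10717 and Gm10718. In covered length, leaving out 1 mouse gave 4 to 34 members, with 34 without YD_1, 14 without RD_2, 4 without HF_1 or HF_3 and 5 without SD_1, CR_2, HF_2 or YD_3. In the relative score the number was 4 without HF_1, 5 without HF_3, 12 without CR_2, 19 without SD_2, 21 without CR_3, 24 without SD_1 or YD_3 and 107 without HF_2. Over all tested regions, leaving out 1 mouse gave 306 to 912 in covered length and 42 to 657 in the relative score. Without YD_1 and RD_2 together 55 members were called in covered length (1028 of all tested regions) and 31 in the relative score (481). With the score percentile in place of the relative score the number of members was 8, out of 161.

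At the threshold of the rule, 177 members had a wide island in exactly 5 lists and 237 regions just missed it with 4. The members just inside with a coding TSS and the longest coverage were Hlcs (median 7.0 kb, range 2.2 to 20), Bcl9l (6.2 kb, 1.2 to 12.4) and Pclo (5.8 kb, 3.6 to 15.6). Just outside were Chil3 (10.4 kb, 3.4 to 25.2), Pcdha1 with Pcdha2 (6.2 kb, 0 to 18.2) and Irs1, the other main adaptor of the insulin receptor (5.8 kb, 0.8 to 8.4). A wide island was found in all 15 lists at 53 members.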

How the data were processed

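The data were 15 lists of H3K4me3 islands, 1 per mouse liver. Per the study's methods and processing notes, the authors mapped 50 bp single-end reads with BWA (genome mm10), removed duplicates and reads with a MAPQ under 1, kept chromosomes 1 to 19 and X, and called islands in each library with SICER2 (window 200 bp, gap 400 bp, FDR under 0.05). The deposited score is the sum of minus the natural log Poisson probability over windows, unscaled between libraries; other deposited values are positions in bp. Replicates were not pooled, and no input control was used here.

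Diets came from the sample labels. Per the study's methods the mice came from fewer litters than there were mice and were allotted to diets at random, so some shared a litter. Which mice did so is not given in the sources used here, and litter entered no fit. Coverage was summed per merged region. Reads were recovered from the score steps of single-window islands with an effective genome fraction of 0.74. TSSs were from GENCODE M21, and sequences from RefSeq GRCm38.p6, aligned with minimap2 2.31, which can miss satellite repeats. Tests used limma 3.58.1 (R 4.3.3) over 22125 regions with Benjamini-Hochberg adjustment, checked on simulated data, and exact permutation tests. Python 3.11.15, numpy 2.4.6, pandas 2.3.3 and scipy 1.17.1 were used. A comparison of 3 mice with 3 by permutation cannot give a p under 0.1.

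The members and gene lists were chosen with earlier results of these data known. Named were the 12 longest members with a coding TSS, the called members of each contrast (up to 5 each way, otherwise the 3 with the smallest p), the up to 4 longest genes of each list with all liver transcription factors and circadian genes, 3 regions on each side of the threshold and the 4 longest without a TSS; other genes were named after their values were seen. Some genes of the lists are not reported here by name.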

Additional observations from a re-analysis of the deposited data

How the results depend on the processing

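The limits were the few mice per diet, the unknown counts per island and the strong dependence of calls on scale and on YD_1 and RD_2. Where a cause is not named below, the cause was not tested. Counts are of all tested regions past an adjusted p of 0.05 in limma, and those reported above were 109 for HF against SD, 214 for YD against SD, 104 for RD against YD and 602 for any diet difference in covered length, and 101 for YD against SD, 187 for RD against YD and 298 for any diet difference in the relative score. CR against SD gave 0 under every alternative run on either measure, and HF against SD gave 0 under every one run on the relative score.

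In covered length, a linear scale in kb gave 63 for HF against SD, 0 for YD against SD, 0 for RD against YD and 92 for any difference. Centred libraries gave 0 for HF against SD, 52 for YD against SD and 99 for any difference. A filter of 8 lists, which tests fewer regions, gave 0 for HF against SD, 652 for YD against SD and 47 for RD against SD. A pseudocount of 1000 bp gave 0 for HF against SD, 36 for YD against SD, 0 for RD against YD and 333 for any difference. The form of the library name as a term gave 0 for HF against SD and 379 for any difference. Array weights gave 367 for HF against SD, 613 for YD against SD and 2597 for any difference. The widest island in place of the covered length kept every count within 1.5 times.

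In the relative score, a pseudocount of 0.5 gave 0 for YD against SD, 0 for RD against YD and 92 for any difference. The percentile gave 61 for RD against YD and 161 for any difference, and the form of name as a term gave 155 for any difference.

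The replicate block gave 0 for HF against SD, 98 for YD against SD, 22 for RD against YD and 157 for any difference in covered length, and 49, 118 and 58 for YD against SD, RD against YD and any difference in the relative score. The labels do not say what same-numbered mice share. The deviations of the 30 pairs of same-numbered mice had a mean correlation of -0.025 (range -0.263 to 0.241). A mean over pairs cannot show whether some of them shared a step of the work. With the block the differences in the share of wide islands kept adjusted p of 0.824.

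An alternative chosen after seeing the data left out YD_1 and RD_2. It gave 0 for HF against SD, 748 for YD against SD, 105 for RD against SD, 201 for RD against YD and 1028 for any difference in covered length, and 433, 57, 400 and 481 for the last 4 of these in the relative score.

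Leaving out 1 mouse at a time gave, in covered length, 0 to 0 for CR, 0 to 191 for HF, 40 to 432 for YD and 0 to 59 for RD against SD, 49 to 251 for RD against YD and 306 to 912 for any difference. In the relative score it gave 0 to 0 for CR, 0 to 0 for HF, 19 to 303 for YD and 0 to 409 for RD against SD, 102 to 858 for RD against YD and 42 to 657 for any difference. The number of members ranged from 645 to 782 and that with a coding TSS from 400 to 508. The difference in the share of wide islands ranged from -3.63 to -1.17 points for SD, -2.94 to -1.10 for CR, 0.667 to 3.19 for HF, -4.66 to 5.47 for YD and -4.26 to 4.40 for RD.

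The number of broad regions was 2187 at a width of 3000 bp, 377 at 5000 bp, 1478 in 3 lists and 403 in 8 lists, and the number of broad regions with a protein-coding TSS was 1627, 196, 953 and 242. Merging only on shared bases gave 781. The recovered reads were given beside the numbers of members per diet and entered no fit.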
